A study of Mus musculus with 4 samples.

Results

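The nuclei described here are the cardiomyocyte nuclei with the highest share of transcripts from 3 genes, Xirp2, Nrap and Ankrd23. Nuclei with at least 500 genes and at most 5% of unique molecular identifiers (UMIs, each standing for 1 captured RNA molecule) from mitochondrial genes were kept. A nucleus counted as a cardiomyocyte where Ttn, Ryr2, Trdn, Ctnna3, Rbm20 and Tnnt2 together gave at least 0.8% of its UMIs. The top 10% of these nuclei, pooled over the 4 libraries and ranked by the share of UMIs from Xirp2, Nrap and Ankrd23, are called high nuclei here, and the remaining 90% other nuclei. This gave 1886 high nuclei of 18860 cardiomyocyte nuclei, out of 34165 nuclei that passed the filters and 36648 barcodes in all. The level of the 3 genes chose the high nuclei, so their own levels, and every gene set against the other nuclei, are given as descriptions with no test.

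Whole hearts of wild-type mice were read at postnatal day 12 by single-nucleus RNA sequencing with 10x Genomics 3′ chemistry. Pups had received AAV9-cTnT-YAP5SA or saline at postnatal day 7, and the mothers were on a high-fat diet (HFD) or on chow for 5 days. YAP5SA is a constitutively active form of YAP, the transcriptional co-activator that the Hippo kinases hold in check, and the cardiac troponin T promoter of the vector limits it to cardiomyocytes. The 4 groups of 1 library each were YAP5SA on HFD, YAP5SA on chow, control on HFD and control on chow. Controls received saline, so effects of the virus and of YAP5SA cannot be told apart. How many hearts went into a library is not stated in what was read here. Groups follow the titles and descriptions of the samples. The treatment labels of YAP5SA on chow and of control on HFD name the other diet. If the treatment labels hold, vector and diet change together, and the diets named below do not apply.

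Xirp2 and Nrap encode actin-binding proteins of striated muscle. XIRP2 sits at the intercalated disc, where cardiomyocytes join end to end, and NRAP takes part in the assembly of myofibrils and anchors their ends at the cell membrane. ANKRD23, with ANKRD1 and ANKRD2, forms the family of muscle ankyrin repeat proteins, which bind the N2A region of titin in the sarcomere's elastic I band and are known to respond to stretch of muscle. Genes of this kind are known in heart and skeletal muscle for responses to mechanical load and to damage of the myofibrils.

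The promoters of the 3 defining genes are printed, with those of Flnc and Acta1 as examples of the genes higher in high nuclei of every library. All 3 defining genes matched the RefSeq promoter table (GRCm38.p6), which gives 250 bases before and 50 after each listed start site. Each is printed 5′ to 3′ on its own strand, and capitals mark matches to 4 motifs searched on both strands: the CArG box bound by SRF, the MEF2 consensus, the MCAT box CATTCC bound by TEAD factors, and the AP-1 motif TGANTCA.
Xirp2 promoter, chr2:67445752-67446051, plus strand: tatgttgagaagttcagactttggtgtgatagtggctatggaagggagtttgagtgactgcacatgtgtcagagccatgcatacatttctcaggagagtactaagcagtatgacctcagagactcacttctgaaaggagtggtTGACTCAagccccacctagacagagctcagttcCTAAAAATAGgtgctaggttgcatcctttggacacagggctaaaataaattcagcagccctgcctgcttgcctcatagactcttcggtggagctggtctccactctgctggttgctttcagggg
Nrap promoter, chr19:56389989-56390288, minus strand: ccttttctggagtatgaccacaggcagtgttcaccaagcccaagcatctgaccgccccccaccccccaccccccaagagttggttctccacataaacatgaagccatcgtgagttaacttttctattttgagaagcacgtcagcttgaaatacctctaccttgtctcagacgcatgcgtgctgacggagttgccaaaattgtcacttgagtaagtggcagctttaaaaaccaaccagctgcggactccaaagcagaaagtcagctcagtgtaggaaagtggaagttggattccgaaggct
Ankrd23 promoter, chr1:36536507-36536806, minus strand: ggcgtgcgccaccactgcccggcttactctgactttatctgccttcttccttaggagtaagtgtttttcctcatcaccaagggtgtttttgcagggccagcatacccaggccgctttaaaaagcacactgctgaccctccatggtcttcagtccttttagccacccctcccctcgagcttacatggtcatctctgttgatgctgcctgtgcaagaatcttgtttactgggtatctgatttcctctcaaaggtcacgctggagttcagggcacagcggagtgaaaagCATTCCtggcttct
Flnc promoter, chr6:29433006-29433305, plus strand: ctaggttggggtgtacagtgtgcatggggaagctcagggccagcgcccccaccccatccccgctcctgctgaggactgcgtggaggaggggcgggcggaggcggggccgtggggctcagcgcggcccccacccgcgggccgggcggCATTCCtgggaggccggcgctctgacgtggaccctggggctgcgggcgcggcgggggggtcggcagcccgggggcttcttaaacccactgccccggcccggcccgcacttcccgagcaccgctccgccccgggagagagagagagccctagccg
Acta1 promoter, chr8:123894726-123895025, minus strand: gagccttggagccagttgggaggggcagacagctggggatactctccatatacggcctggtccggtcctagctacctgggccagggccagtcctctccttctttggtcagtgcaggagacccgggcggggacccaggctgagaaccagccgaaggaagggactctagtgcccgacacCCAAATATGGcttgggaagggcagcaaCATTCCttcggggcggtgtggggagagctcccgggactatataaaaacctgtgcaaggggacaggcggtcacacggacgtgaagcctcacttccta

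Counted from the start site, the Xirp2 promoter held an AP-1 match at −107 and a MEF2 match at −74. No match to the 4 motifs was found in the Nrap window. The Ankrd23 window printed here held an MCAT match at 36, and the window of a second listed Ankrd23 start site, chr1:36535690-36535989, held one at −120. Flnc held an MCAT match at −104, and Acta1 a CArG match at −73 and an MCAT match at −46. Windows of Csrp3, Pdlim3, Atf3 and Scube2, also higher in high nuclei, were searched too and are not printed. Neither Csrp3 window nor the Scube2 window held a match to the 4 motifs. Pdlim3 held 2 MCAT matches, and Atf3 a MEF2 match but no MCAT match. Of 32851 promoters of the same length in the table, 1.63% held a CArG box, 3.19% a MEF2 match, 14.7% an MCAT box and 7.81% an AP-1 match. A match describes the letters of these windows only, and none of the 4 motifs was found in the windows of all 3 defining genes.

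By library, the totals were 61.2 M UMIs for YAP5SA on HFD, 51.7 M for YAP5SA on chow, 57.5 M for control on HFD and 43.4 M for control on chow, over 6977 to 11158 barcodes. Of 36512 distinct barcodes, 136 occurred in more than a single library. Scrublet or a fixed rate marked 4.51% to 6.93% of nuclei as doublets. High nuclei held fewer of them, 2.75%, 4.06%, 3.75% and 1.99% in YAP5SA on HFD, YAP5SA on chow, control on HFD and control on chow, against 10.9%, 9.39%, 9.59% and 7.50% of other nuclei. Xist gave 154625, 298, 146049 and 106671 UMIs and the Y-linked Ddx3y 17, 4760, 17 and 1 in the same libraries, so YAP5SA on chow was the only library of the male pattern.

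The threshold was set by rank in a score per nucleus, so high nuclei are a range of that score. It lay at 0.135% of UMIs, the median over all cardiomyocyte nuclei at 0.0434% and the highest nucleus at 6.55%. The lowest high nucleus had 0.134721% and the highest other nucleus 0.134641%. Within 10% of the threshold on either side lay 824 nuclei, 360 of them high and 464 other. In 172 high nuclei (9.12%) the call rested on at most 4 UMIs.

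Cardiomyocyte markers outside the rule were abundant in high nuclei, as the label says. The summed level of 14 such markers, Myh6, Actc1, Myl2 and Tnni3 among them, was 28506 CPM (counts-per-million of all UMIs) in high nuclei of YAP5SA on HFD, 35813 in those of YAP5SA on chow, 34471 in those of control on HFD and 32800 in those of control on chow. Other nuclei of the same libraries had 20121, 25564, 26563 and 28853 CPM. Of the 14 markers, 10 lay above the other nuclei in all 4 libraries and 1 below, beside 1002 and 3023 of all 8781 genes. Summed levels of the marker lists of other main heart cell types were lower in high than in other nuclei. The exception was lymphocyte markers in YAP5SA on chow, with 4.47 against 3.42 CPM. Single markers varied, and 2 of 3 macrophage and 6 of 7 pericyte and smooth muscle markers measured were below in all 4 libraries. The 8 fibroblast markers at the level tested were below other nuclei in every library. Summed levels cover every gene of a list, and the 9 fibroblast markers gave 407 to 583 CPM in high and 611 to 1218 CPM in other nuclei. After thinning to 2000 UMIs 2 of the 8 were below in every library, and 4 of 8 in nuclei with at least 2% of their UMIs in cardiomyocyte genes. The 8 endothelial and endocardial markers at that level were likewise below throughout. The list of 9 summed to 68.4 to 201 CPM in high and 226 to 451.5 CPM in other nuclei. Macrophage markers summed to 107 to 208 CPM in high and 215.5 to 349 CPM in other nuclei, and pericyte and smooth muscle markers to 299 to 564 CPM in high and 495 to 906 CPM in other nuclei. Epicardial, lymphocyte and Schwann cell markers stayed at 1.63 to 17.4 CPM per list in high nuclei and 3.42 to 41.3 CPM in other nuclei. Sox10 and Kcna1 of the Schwann cell list had 0 UMIs in high nuclei of all 4 libraries.

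The 3 defining genes were not equally far apart between the states. Xirp2 stood at 1225 CPM in high nuclei of YAP5SA on HFD, 1421 in those of YAP5SA on chow, 1370.1 in those of control on HFD and 1138 in those of control on chow, against 101, 35.2, 124 and 109 CPM in other nuclei of those libraries. Nrap stood at 712 (HFD) and 931 (chow) CPM with YAP5SA and 1202 (HFD) and 809.9 (chow) CPM with saline in high nuclei, against 182 (HFD) and 188 (chow) CPM with YAP5SA and 293 (HFD) and 212 (chow) CPM with saline in other nuclei. Ankrd23 stood at 301 (HFD) and 571 (chow) CPM with YAP5SA and 492 (HFD) and 542 (chow) CPM with saline in high nuclei, against 83.3 (HFD) and 131 (chow) CPM with YAP5SA and 139 (HFD) and 137 (chow) CPM with saline in other nuclei. The groups did not overlap for any of the 3 genes, in the direction the rule sets. Xirp2 gave 54.7%, 48.6%, 44.7% and 45.7% of the UMIs of the 3 genes in high nuclei of YAP5SA on HFD, YAP5SA on chow, control on HFD and control on chow. In other nuclei it gave 27.6%, 9.96%, 22.3% and 23.8%. The same UMIs ranked the nuclei, so these shares only describe what the rule chose. UMIs of all 3 genes were found together in 46.3% to 70.2% of high nuclei, against 5.43% to 25.3% of other nuclei.

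Each defining gene was also read in nuclei chosen without it. With the top 10% taken by Nrap and Ankrd23 alone, Xirp2 stood at 859.8 CPM in the chosen nuclei of YAP5SA on HFD, 888 in those of YAP5SA on chow, 1161 in those of control on HFD and 808 in those of control on chow, against 133, 57.6, 181 and 130.3 CPM in the nuclei not chosen. This was 6.48-, 15.4-, 6.42- and 6.20-fold higher. Chosen by Xirp2 alone, nuclei held 2.01-, 3.12-, 2.12- and 1.98-fold more Nrap in YAP5SA on HFD, YAP5SA on chow, control on HFD and control on chow, and 1.66-, 2.17-, 1.88- and 1.68-fold more Ankrd23. All 3 genes were higher together in the same nuclei of every library, with Xirp2 in YAP5SA on chow standing furthest apart.

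High nuclei were most frequent in control on HFD. They made up 6.19% of cardiomyocyte nuclei in YAP5SA on HFD (364 nuclei, exact 95% Clopper-Pearson interval 5.59% to 6.84%) and 7.91% in YAP5SA on chow (419 nuclei, 7.199% to 8.67%). They made up 21.9% in control on HFD (801 nuclei, 20.6% to 23.3%) and 7.50% in control on chow (302 nuclei, 6.71% to 8.36%). The interval of control on HFD lay above the other 3, and those of YAP5SA on chow and control on chow overlapped. These intervals cover counting error only, not the spread between hearts. Between arms the share was 7.05% ± 1.22 in YAP5SA and 14.7% ± 10.2 in control libraries (SD, n = 2 each), which an exact two-sided permutation test did not tell apart (p = 0.667, the smallest p possible being 0.333). Other nuclei were deeper than high nuclei, with median UMIs of 4388.5, 4306, 5855 and 5189 in high nuclei of YAP5SA on HFD, YAP5SA on chow, control on HFD and control on chow, against 5283, 5309, 6639 and 6184.5 in other nuclei. With every nucleus thinned to 2000 UMIs, which left out 13 to 22 high and 56 to 154 other nuclei per library, the shares were 4.37%, 5.89%, 17.0% and 5.80%.

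**Figure D1:**
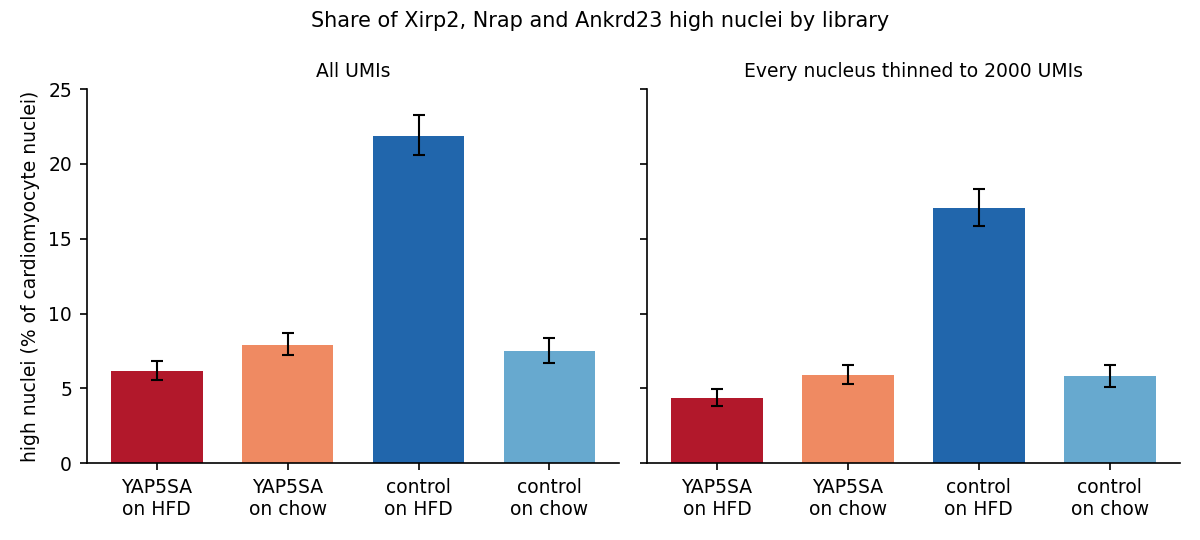
Bars give the percent of cardiomyocyte nuclei that were high in each library, with exact 95% intervals, for all UMIs and after thinning every nucleus to 2000 UMIs. Control on HFD stands at 21.9% and at 17.0% after thinning, and the other libraries lie between 4.37% and 7.91%.

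Among the genes higher in high nuclei were sarcomere and Z disc genes such as Flnc, Csrp3 and Pdlim3. Against the other nuclei of the same library, 85 of 8781 genes with a mean of at least 10 CPM were at least 1.5-fold higher in all 4 libraries (0.968%), the 3 defining genes included, and 484 were at least 1.5-fold lower in all 4 (5.51%). Over all 8781 genes the median log2 fold was −0.10 (HFD) and −0.11 (chow) with YAP5SA, and −0.18 (HFD) and −0.07 (chow) in controls. With TMM scaling, which shifts these medians by 0.23, 0.18, 0.29 and 0.10, 144 genes were higher and 337 lower. With every nucleus thinned to 2000 UMIs 34 were higher and 121 lower, and 31 of the 85 and 111 of the 484 were still counted. Weak cardiomyocyte content was rarer among high nuclei in 3 libraries and about equal in control on chow: 1.92%, 7.88%, 2.37% and 2.65% of high nuclei of YAP5SA on HFD, YAP5SA on chow, control on HFD and control on chow had under 2% of UMIs from the 6 cardiomyocyte genes, against 20.6%, 30.8%, 8.33% and 2.63% of other nuclei. Among nuclei with at least 2%, 68 genes were higher and 223 lower, of which 60 and 201 are shared with the counts above. The part of cardiomyocyte content and depth in each gene's difference was otherwise not tested.

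Flnc, which encodes filamin C, an actin crosslinker of the Z disc that gathers at sarcomere lesions, lies on chromosome 6 (29433256 to 29461883, mm10). It stood at 98.1 CPM in high nuclei of YAP5SA on HFD, 200.03 in those of YAP5SA on chow, 196 in those of control on HFD and 153 in those of control on chow, against 47.1, 80.7, 70.1 and 62.4 CPM in other nuclei. The high sums did not overlap the other sums, and the ratio was 2.09, 2.48, 2.80 and 2.46. Csrp3 encodes muscle LIM protein, a Z disc protein linked to stretch sensing (chromosome 7, 48830398 to 48848033). It stood at 318 (HFD) and 454 (chow) CPM with YAP5SA and 428 (HFD) and 369.6 (chow) CPM with saline in high nuclei, against 149 (HFD) and 166 (chow) CPM with YAP5SA and 185 (HFD) and 175 (chow) CPM with saline in other nuclei. Its ratio of 2.12 to 2.73 was nearly the same in every library, and the sums again did not overlap. Pdlim3, which encodes the alpha-actinin-associated LIM protein ALP, stood at 178 (HFD) and 139 (chow) CPM with YAP5SA and 335 (HFD) and 106 (chow) CPM with saline in high nuclei, against 65.9 (HFD) and 44.9 (chow) CPM with YAP5SA and 137 (HFD) and 35.5 (chow) CPM with saline in other nuclei. Across libraries the states overlapped for Pdlim3, since other nuclei of control on HFD lay at the level of high nuclei of YAP5SA on chow, but within each library high nuclei were 2.44- to 3.10-fold higher.

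Acta1 encodes skeletal alpha-actin, the actin of the fetal and loaded heart (chromosome 8, 123891769 to 123894751). It stood at 5.99 (HFD) and 17.9 (chow) CPM with YAP5SA and 27.8 (HFD) and 24.2 (chow) CPM with saline in high nuclei, against 0.722 (HFD) and 1.34 (chow) CPM with YAP5SA and 5.09 (HFD) and 4.06 (chow) CPM with saline in other nuclei. These rest on 11, 36, 155 and 41 UMIs in high nuclei, and the log2 fold was 3.09 (95% interval 1.89 to 4.11), 3.74, 2.45 and 2.58. UMIs of Acta1 were found in 1.92%, 3.10%, 7.87% and 6.62% of high nuclei, and in 0.268%, 0.385%, 1.35% and 0.341% of nuclei outside the cardiomyocyte rule. Atf3, a transcription factor gene induced by many stresses, stood at 8.72 (HFD) and 47.6 (chow) CPM with YAP5SA and 82.6 (HFD) and 31.2 (chow) CPM with saline in high nuclei, against 1.74 (HFD) and 8.40 (chow) CPM with YAP5SA and 16.3 (HFD) and 2.97 (chow) CPM with saline in other nuclei. In YAP5SA on HFD only 16 Atf3 UMIs stood behind the high value, and after thinning to 2000 UMIs its log2 fold there turned to −1.28, against 2.43, 1.88 and 3.15 in the other libraries. Btg2, an antiproliferative early response gene, stood at 59.4 to 116 CPM in high and 23.7 to 38.5 CPM in other nuclei, without overlap.

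The other genes named as higher have varied roles. Scube2, which encodes a secreted protein known for releasing Hedgehog ligands, stood at 52.9 to 75.9 CPM in high and 13.7 to 19.1 CPM in other nuclei, a 3.77- to 4.62-fold difference. Tent5a, a poly(A) polymerase gene, stood at 58.4 to 91.3 CPM in high and 18.9 to 35.8 CPM in other nuclei. Spsb4, which encodes an adaptor of a ubiquitin ligase, stood at 65.2 to 150.3 CPM in high and 29.9 to 59.0 CPM in other nuclei. Slitrk4, a transmembrane protein gene, stood at 53.4 and 54.1 CPM in high nuclei of YAP5SA on HFD and on chow and at 9.31 and 18.3 CPM in control on HFD and on chow, against 21.2, 18.6, 3.20 and 7.56 CPM in other nuclei. High nuclei of control libraries thus lay below the other nuclei of YAP5SA on HFD for this gene, although the ratio within a library was 2.45 to 2.92. Gm13601 was at least 8.16-fold higher in every library, with 497 (HFD) and 361 (chow) CPM with YAP5SA and 250.02 (HFD) and 224 (chow) CPM with saline in high nuclei, against 56.3 (HFD) and 12.4 (chow) CPM with YAP5SA and 24.2 (HFD) and 27.5 (chow) CPM with saline in other nuclei. It is annotated on the minus strand inside the body of Xirp2 (67491044 to 67516525 within 67446002 to 67526614 of chromosome 2). The sources used here do not state whether counting used strand, so reads of Gm13601 and of Xirp2 cannot be told apart. The same limit holds for Gm41505, annotated as antisense, with 119 to 135 CPM in high and 21.1 to 55.7 CPM in other nuclei.

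**Figure D2:**
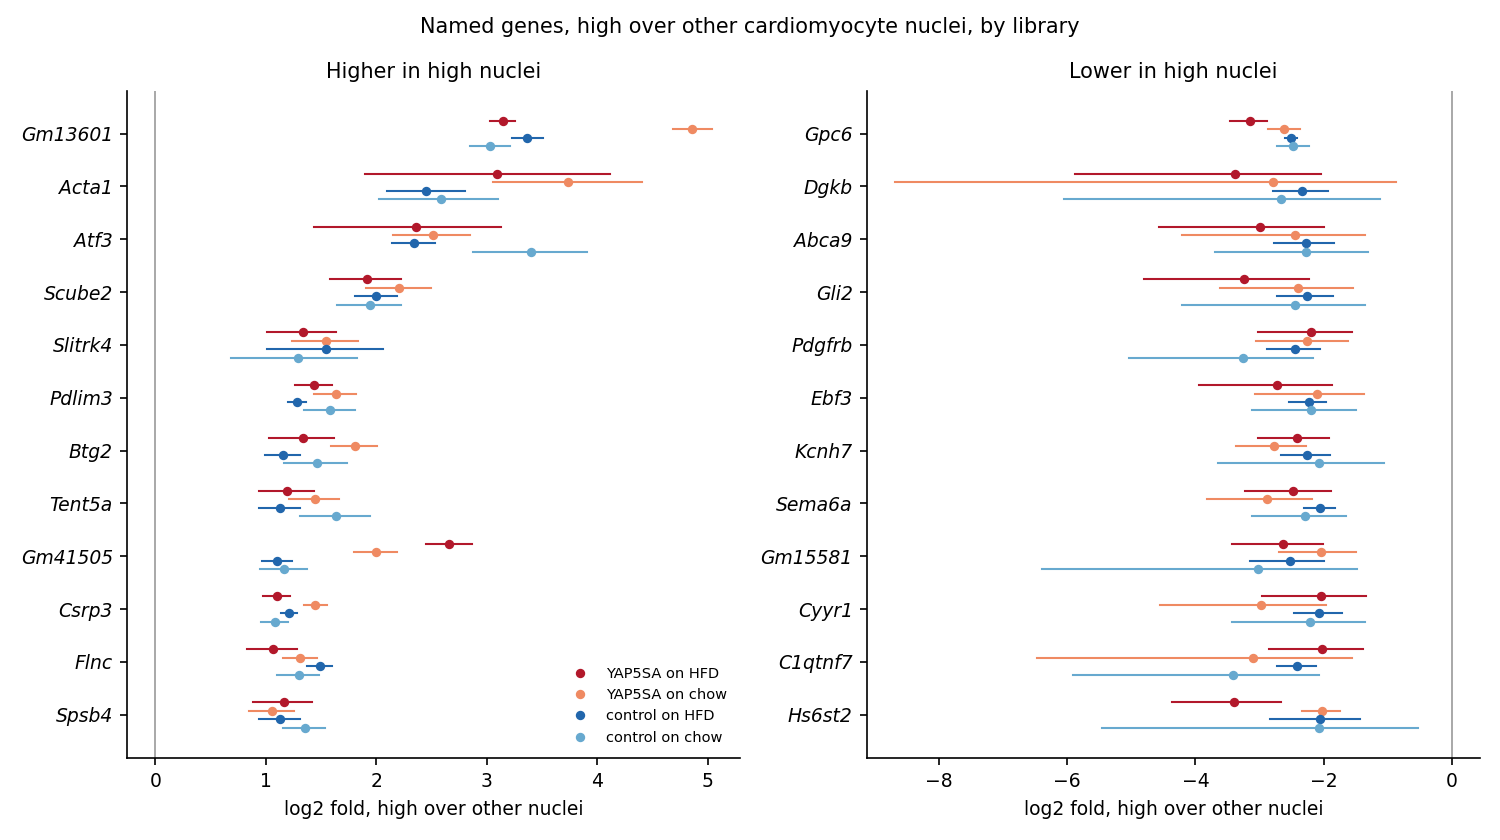
Points give the log2 fold of high over other nuclei in each library for the 12 genes named as higher and the 12 named as lower, with exact 95% intervals that cover counting error only. Every point lies on its side of 0, and genes with few UMIs, such as Acta1 in YAP5SA on HFD and Dgkb in YAP5SA on chow, have the widest intervals.

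Of the genes that bind titin's N2A region or signal at the Z disc, 23 were measured at the CPM floor apart from the defining genes, and 7 were at least 1.5-fold higher in all 4 libraries, namely Csrp3, Pdlim3, Flnc, Synpo2l, Pdlim5, Actn2 and Cavin4, while 0 were lower. Of all genes 0.968% were higher and 5.51% lower. The median log2 fold of the list was 0.62 (HFD) and 0.65 (chow) with YAP5SA, and 0.48 (HFD) and 0.45 (chow) in controls, against −0.10, −0.11, −0.18 and −0.07 over all genes. Synpo2l, an actin-binding Z disc protein gene, was 1.53-, 1.77-, 2.44- and 2.37-fold higher in YAP5SA on HFD, YAP5SA on chow, control on HFD and control on chow. Cavin4, a caveola protein gene of muscle, was 1.99-, 2.59-, 1.85- and 1.68-fold higher. Actn2, which encodes the alpha-actinin of the Z disc, stood at 1632 (HFD) and 2061 (chow) CPM with YAP5SA and 3999 (HFD) and 2233 (chow) CPM with saline in high nuclei, against 952 (HFD) and 1205 (chow) CPM with YAP5SA and 2586 (HFD) and 1479 (chow) CPM with saline in other nuclei. Other members of the list were closer, with Ldb3 0.26 to 0.48 and Nexn 0.22 to 0.55 log2 units higher. The count of 7 was 4 among nuclei with at least 2% cardiomyocyte genes, 3 after thinning, and 11 with the top 5% taken as high.

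Genes of filamin repair and small heat shock proteins were higher in part. Of 17 measured, 4 were at least 1.5-fold higher in all 4 libraries (Flnc, Hspb7, Hspb6 and Dnajb5) and 1 lower, beside 0.968% and 5.51% of all genes. Above the other nuclei throughout were 11, beside 1002 of all 8781 genes. The median log2 fold was 0.46, 0.81, 0.28 and 0.55 in YAP5SA on HFD, YAP5SA on chow, control on HFD and control on chow. Hspb7, a small heat shock protein of the cardiac sarcomere, stood at 67.03 to 96.1 CPM in high and 38.2 to 62.9 CPM in other nuclei, 1.53- to 1.97-fold apart. Bag3, the co-chaperone that clears damaged filamin, was 1.53-, 1.84-, 1.39- and 1.18-fold higher and so missed the fold in the control libraries. After thinning, 2 of the 17 were still higher.

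Contractile genes lay modestly higher in high nuclei. Of 27 contraction and sarcomere genes, 22 were above the other nuclei in all 4 libraries and 0 below, beside 1002 and 3023 of all 8781 genes. By at least 1.5-fold 4 were higher and 0 lower throughout, beside 0.968% and 5.51% of all genes. The medians were 0.48, 0.65, 0.32 and 0.29 in YAP5SA on HFD, YAP5SA on chow, control on HFD and control on chow. Those 4 were Tnnc1, which encodes cardiac troponin C, Myom1 of the M band, Actn2 and Lmod2, which lengthens thin filaments. Lmod2 stood at 556 (HFD) and 529 (chow) CPM with YAP5SA and 394 (HFD) and 447 (chow) CPM with saline in high nuclei, against 307 (HFD) and 228 (chow) CPM with YAP5SA and 216 (HFD) and 254 (chow) CPM with saline in other nuclei. Myh6, the adult mouse myosin heavy chain gene, was 1.54- and 1.85-fold higher in YAP5SA on HFD and on chow, and 1.21- and 1.09-fold higher in control on HFD and on chow. With at least 2% cardiomyocyte genes required, 1 of the 27 passed the fold and 18 were above in all 4 libraries, and the medians were 0.28, 0.42, 0.15 and 0.26.

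Intercalated disc genes were higher in part. Of 26 measured, 9 were above the other nuclei in all 4 libraries and 2 below, beside 1002 and 3023 of all 8781 genes. By at least 1.5-fold 2 were higher in every library and 0 lower, beside 0.968% and 5.51% of all genes. The medians were 0.22, 0.15, 0.06 and 0.08 in YAP5SA on HFD, YAP5SA on chow, control on HFD and control on chow. Enah, which encodes the actin regulator Mena, stood at 1172 (HFD) and 1702 (chow) CPM with YAP5SA and 1098 (HFD) and 992 (chow) CPM with saline in high nuclei, against 513 (HFD) and 667 (chow) CPM with YAP5SA and 529.9 (HFD) and 518 (chow) CPM with saline in other nuclei. Des, the desmin intermediate filament gene, was 1.65- to 2.47-fold higher. In contrast, the cadherin gene Cdh2 was 0.989- to 1.19-fold, the gap junction gene Gja1 1.06- to 1.15-fold and the vinculin gene Vcl 0.785- to 1.06-fold the level of other nuclei. Xirp1, the close relative of Xirp2, stood at 21.8 (HFD) and 38.7 (chow) CPM with YAP5SA and 19.7 (HFD) and 34.8 (chow) CPM with saline in high nuclei, against 15.4 (HFD) and 13.9 (chow) CPM with YAP5SA and 9.85 (HFD) and 13.3 (chow) CPM with saline in other nuclei, and missed the fold in YAP5SA on HFD alone.

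Genes of wall stress and the fetal program went both ways. Of 24 measured, 5 were at least 1.5-fold higher in all 4 libraries (Acta1, Atf3, Uck2, Clu and Des) and 4 lower (Runx1, Tnc, Postn and Thbs1). Of all genes 0.968% were higher and 5.51% lower. The medians of the list were 0.42, 0.35, 0.42 and 0.51 in YAP5SA on HFD, YAP5SA on chow, control on HFD and control on chow. The 4 lower genes include the matrix genes Postn and Tnc, which fibroblasts express, and fibroblast markers were lower in the same nuclei as given above. After thinning 1 gene was higher and 1 lower, and with at least 2% cardiomyocyte genes 5 were higher and 1 lower. Nppb, the brain natriuretic peptide gene, stood at 284 (HFD) and 745 (chow) CPM with YAP5SA and 173 (HFD) and 317 (chow) CPM with saline in high nuclei, against 149 (HFD) and 513 (chow) CPM with YAP5SA and 63.2 (HFD) and 111 (chow) CPM with saline in other nuclei. Its ratio was 1.91 and 1.45 in YAP5SA on HFD and on chow, against 2.74 and 2.87 in control on HFD and on chow. Nppa, the atrial natriuretic peptide gene, was not uniform, with ratios of 1.45, 1.42, 0.744 and 1.93. Of 16 immediate early genes 3 were higher (Atf3, Btg2 and Ier5) and 1 lower (Egr1), and after thinning 1 of 15 was higher and 0 lower.

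**Figure D3:**
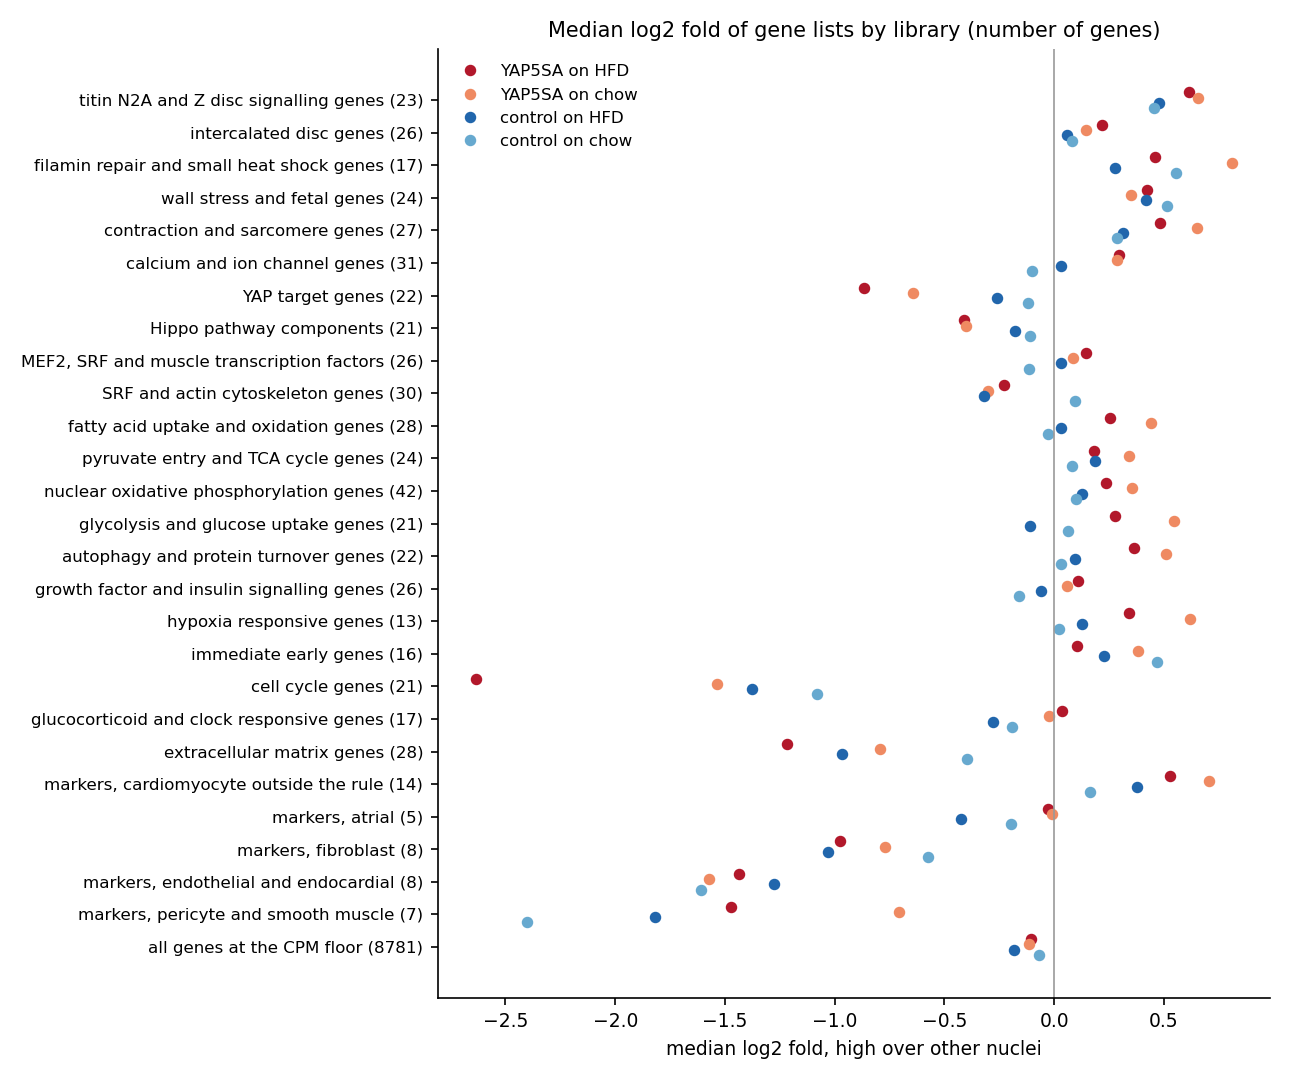
Points give the median log2 fold of high over other nuclei in each library for gene and marker lists, with the number of genes measured in brackets. Titin and Z disc, filamin repair and contraction genes lie to the right of 0 in every library, and cell cycle, matrix, fibroblast and endothelial genes to the left.

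Within the high nuclei Flnc and Csrp3 were highest at the top of the score. They are not part of the score. They were named for their high over other fold in these same nuclei, so their rise across the threshold follows from that choice. Split by percentile of the score over all cardiomyocyte nuclei, the top 1% held 15 nuclei of YAP5SA on HFD, 39 of YAP5SA on chow, 115 of control on HFD and 20 of control on chow. Xirp2 is part of the score, so its rise over the bins is set by the rule. It stood at 7780.1, 8365, 5480.4 and 8086 CPM there, against 683, 305, 386 and 447 CPM between percentiles 90 and 95. Flnc stood at 412, 476, 429 and 426 CPM in the top 1%, against 62.1, 143, 114 and 113 CPM between percentiles 90 and 95 and 47.8, 73.2, 58.4 and 52.5 CPM in the lower 50%. The Flnc level thus differed little between libraries in the top 1%, while it was lower in YAP5SA on HFD just above the threshold. Csrp3 stood at 885, 716, 729 and 1002 CPM in the top 1%, against 131, 141, 135 and 152 CPM in the lower 50%. The top 1% has under 20 nuclei in YAP5SA on HFD, and its values there rest on 41 Flnc and 88 Csrp3 UMIs.

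**Figure D4:**
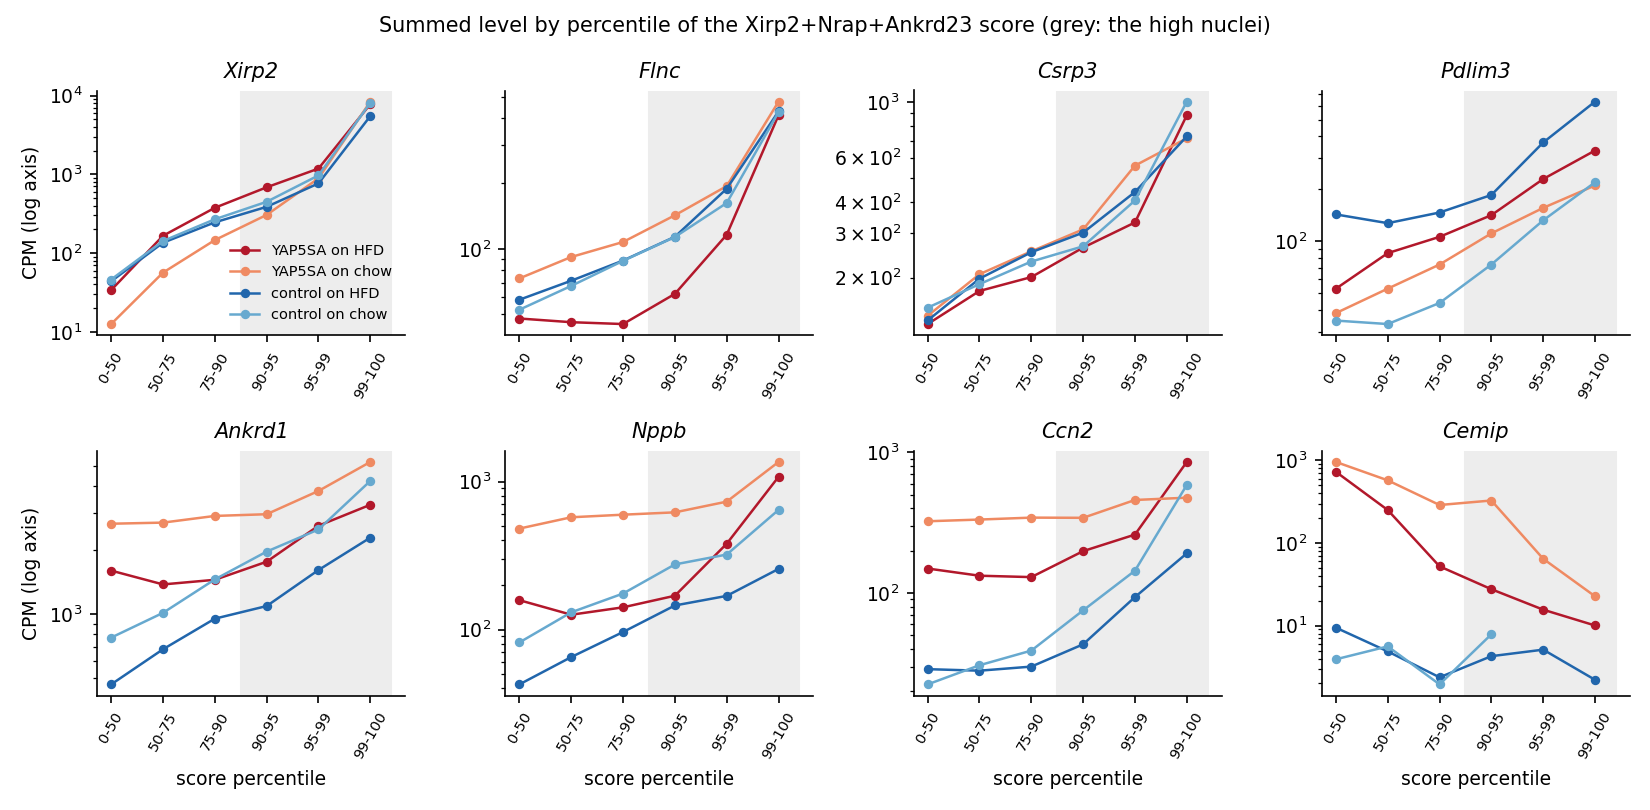
Each panel gives the summed CPM (log axis) of 1 gene in nuclei grouped by percentile of the Xirp2, Nrap and Ankrd23 score, with a line per library and the high nuclei shaded. Xirp2 is part of the score, so its rise is set by the rule. Flnc, Csrp3 and Pdlim3 were named for their fold between these high and other nuclei, so a rise across the threshold follows from that choice. Flnc and Csrp3 reach their highest level in the top 1% of every library, Cemip is lower in the top 1% than in the lower 50% of the YAP5SA libraries, and bins with 0 Cemip UMIs in control on chow have no point.

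Many cell cycle and matrix genes were lower in high nuclei. Of 21 cell cycle genes measured, 15 were at least 1.5-fold lower in all 4 libraries and 0 higher, beside 5.51% and 0.968% of all genes. The medians were −2.64, −1.54, −1.38 and −1.08 in YAP5SA on HFD, YAP5SA on chow, control on HFD and control on chow. Top2a, the topoisomerase of dividing cells, stood at 3.27 (HFD) and 19.9 (chow) CPM with YAP5SA and 24.7 (HFD) and 24.2 (chow) CPM with saline in high nuclei, against 85.3 (HFD) and 86.5 (chow) CPM with YAP5SA and 68.7 (HFD) and 64.8 (chow) CPM with saline in other nuclei. Mki67, the proliferation marker, stood at 7.08 to 12.9 CPM in high and 31.0 to 40.1 CPM in other nuclei. With doublets left out the count was 16 of 21. With at least 2% cardiomyocyte genes it was 12 of 20, and after thinning 7 of 21. Of 28 extracellular matrix genes 11 were lower and 0 higher, 4 of 27 with at least 2% cardiomyocyte genes and 1 of 27 after thinning.

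Several of the 12 genes named as lowest are known from cells other than cardiomyocytes. Gpc6, a glypican gene, stood at 55.6 (HFD) and 67.01 (chow) CPM with YAP5SA and 196 (HFD) and 80.2 (chow) CPM with saline in high nuclei, against 497 (HFD) and 412 (chow) CPM with YAP5SA and 1112 (HFD) and 447 (chow) CPM with saline in other nuclei. Pdgfrb, the receptor gene that marks pericytes, stood at 9.26 (HFD) and 8.93 (chow) CPM with YAP5SA and 9.49 (HFD) and 2.95 (chow) CPM with saline in high nuclei, against 43.7 (HFD) and 43.7 (chow) CPM with YAP5SA and 52.1 (HFD) and 31.1 (chow) CPM with saline in other nuclei. Both differed without overlap between the states. Abca9, Gli2, Ebf3 and C1qtnf7 stood at 0.993 to 18.8 CPM in high and 10.6 to 88.9 CPM in other nuclei. Hs6st2, a heparan sulfate sulfotransferase gene, was in addition higher in YAP5SA than in control libraries within each state, with 7.08 and 46.7 CPM in high nuclei of YAP5SA on HFD and on chow and 3.40 and 1.18 CPM in those of control on HFD and on chow, against 77.3, 191, 14.5 and 6.21 CPM in other nuclei. Of the 12, 8 passed the fold with at least 2% cardiomyocyte genes and 6 after thinning, and all 12 were below the other nuclei in all 4 libraries with at least 2% cardiomyocyte genes, and 11 after thinning.

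Of 22 YAP target genes measured, 12 were below and 3 above the other nuclei in all 4 libraries, beside 3023 and 1002 of all 8781 genes. At 1.5-fold 0 were higher and 5 lower throughout (Axl, Myof, Rbms3, Arhgef17 and Vgll3), beside 0.968% and 5.51% of all genes. The medians were −0.87, −0.64, −0.26 and −0.12 in YAP5SA on HFD, YAP5SA on chow, control on HFD and control on chow. With TMM scaling the median in control on HFD was 0.03 and 2 genes were lower. After thinning 1 of 22 was lower, and with at least 2% cardiomyocyte genes 2 of 20. Ankrd1, the cardiac muscle ankyrin repeat gene, stood at 2112 (HFD) and 3545 (chow) CPM with YAP5SA and 1504 (HFD) and 2333 (chow) CPM with saline in high nuclei, against 1535 (HFD) and 2697 (chow) CPM with YAP5SA and 656 (HFD) and 947 (chow) CPM with saline in other nuclei. Ccn2, which encodes a matricellular protein, stood at 253 (HFD) and 404 (chow) CPM with YAP5SA and 88.3 (HFD) and 136 (chow) CPM with saline in high nuclei, against 143 (HFD) and 328 (chow) CPM with YAP5SA and 28.8 (HFD) and 27.4 (chow) CPM with saline in other nuclei. Of 21 Hippo pathway components 2 were lower (Tead4 and Vgll3) and 0 higher, beside 5.51% and 0.968% of all genes, and after thinning 1 of 21 was lower.

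Within high nuclei, YAP5SA was compared with control over libraries, 2 per arm, with edgeR's quasi-likelihood test on summed UMIs. Of 10564 genes tested, 0 were called higher (0%) and 0 lower (0%) at an adjusted p of 0.05, 1465 had an unadjusted p under 0.05, and DESeq2 called 109 higher and 60 lower. High nuclei of a library gave 1696534 to 5583611 UMIs. The library of the male pattern is a YAP5SA library, so sex and vector cannot be fully told apart in any YAP5SA comparison. Leaving out YAP5SA on HFD, control on HFD or control on chow gave 148, 107 and 286 calls, so the count of 0 holds for the 4 libraries together and without YAP5SA on chow. Ccn2 stood 1.56 log2 units higher in YAP5SA (approximate SE 0.31, edgeR adjusted p = 0.14), with the YAP5SA libraries at 253 and 404 CPM on HFD and chow and control libraries at 88.3 and 136 CPM. Cemip stood 4.62 higher (SE 1.01, edgeR adjusted p = 0.157). The sarcomere genes named above showed no call, with Flnc at −0.25 (SE 0.36, edgeR adjusted p = 0.81), Csrp3 at −0.07 (SE 0.25, edgeR adjusted p = 0.924) and Pdlim3 at −0.55 (SE 0.49, edgeR adjusted p = 0.679). A missed threshold does not show that these genes were at the same level in both arms.

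Whether the YAP5SA effect differed between high and other nuclei was tested directly, as the interaction of state and vector over the 8 sums with library as a term. Of 17173 genes, 134 had a more positive YAP5SA effect in high nuclei (0.78%) and 239 a more negative one (1.39%). Without YAP5SA on HFD the counts were 101 and 115, without YAP5SA on chow 75 and 172, without control on HFD 247 and 131, and without control on chow 87 and 241. With the top 10% taken within each library they were 191 and 189. The 3 defining genes are not read in this test. Their levels still differed between libraries: a Xirp2 UMI was found in 12.8% of other nuclei of YAP5SA on chow and 39.7% of those of control on chow. The pooled threshold can thus choose different kinds of nuclei in the arms. The part of this choice in the differences below was not tested.

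Some YAP targets had a smaller YAP5SA effect in high nuclei. Of 25 YAP target genes tested, 8 had a smaller YAP5SA effect in high nuclei and 0 a larger one. The 8 were Ankrd1, Ccn2, Amotl2, Crim1, Rbms3, Asap1, Wwc1 and Cemip. Of all genes tested 1.39% were more negative and 0.78% more positive. For Ccn2 the difference was −1.42 log2 units (approximate SE 0.17, edgeR adjusted p = 2.7e-09): YAP5SA over control was 1.52 on HFD and 1.57 on chow in high nuclei, against 2.32 and 3.58 in other nuclei. In Ankrd1 it was −0.85 (SE 0.16, edgeR adjusted p = 0.0002). In both genes the ratio of high over other nuclei was larger in control libraries: for Ccn2 it was 1.77 and 1.23 in YAP5SA on HFD and on chow, against 3.07 and 4.96 in control on HFD and on chow, and for Ankrd1 1.38 and 1.31 in YAP5SA, against 2.29 and 2.46 in control. Cemip, a hyaluronan-degrading protein gene, differed through the other nuclei. It stood at 22.9 and 189 CPM in high nuclei of YAP5SA on HFD and on chow and at 4.30 and 4.13 CPM in those of control on HFD and on chow, against 546, 807, 6.17 and 4.17 CPM in other nuclei, a difference of −2.59 (SE 0.51, edgeR adjusted p = 0.00054). A Cemip UMI was found in 6.04% and 15.3% of high nuclei of YAP5SA on HFD and on chow, and in 9.10% and 13.1% of nuclei outside the cardiomyocyte rule. At 2000 UMIs per nucleus the shares were 1.71% and 8.73% of high nuclei, against 7.37% and 9.71% of nuclei outside the rule. The part of free RNA in these shares was not tested. The count of 8 was 6 of 24 with at least 2% cardiomyocyte genes, 4 of 24 after thinning, and 4 of 25 without YAP5SA on HFD.

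The genes with the clearest difference in the negative direction were Gm32027, Mid1, Gm35330, Lmcd1 and Cobl. Mid1, which encodes a microtubule-associated ubiquitin ligase, stood at 766 and 1899 CPM in high nuclei of YAP5SA on HFD and on chow and at 796 and 709.7 CPM in those of control on HFD and on chow, against 1931, 4708, 623 and 653 CPM in other nuclei. In high nuclei the YAP5SA and control values of Mid1 overlapped, in other nuclei they did not, and the difference was −1.59 (approximate SE 0.16, edgeR adjusted p = 2.8e-11). Cobl, an actin nucleator gene, stood at 42.0 and 75.9 CPM in high nuclei of YAP5SA on HFD and on chow and at 28.1 and 31.8 CPM in those of control on HFD and on chow, against 221, 219, 29.6 and 30.6 CPM in other nuclei. Its difference was −1.93 (SE 0.21, edgeR adjusted p = 9.6e-11). Lmcd1, which encodes a LIM domain protein of the Z disc, had a difference of −1.81, and the long noncoding RNAs Gm32027 and Gm35330 had −1.89 and −2.45. Of all genes tested 1.39% were more negative. Of 28 matrix genes 3 were more negative, the type IV collagen genes Col4a3, Col4a4 and Col4a5. Col4a3 stood at 38.1 and 239 CPM in high nuclei of YAP5SA on HFD and on chow and at 11.1 and 24.2 CPM in those of control on HFD and on chow, against 503, 933, 18.8 and 20.7 CPM in other nuclei. Of the wall stress genes, 5 of 30 were more negative, Nppb (−0.79), Acta2, Bdnf (−2.26), Ankrd1 and Ccn2. Of 36 cell cycle genes 6 were more negative, and 0 without YAP5SA on HFD.

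In the positive direction, which held 0.78% of all genes tested, the genes with the smallest p were Fgf12, Tmem163, Ephb1, Ryr3 and Bmpr1b. Over the alternatives Ryr3 kept its call in 9 and lost it in 6, and Bmpr1b kept it in 9 and lost it in 5. Fgf12, which encodes an intracellular FGF homologous factor that modulates sodium channels, stood at 837 and 149.9 CPM in high nuclei of YAP5SA on HFD and on chow and at 34.9 and 8.84 CPM in those of control on HFD and on chow, against 437, 290.2, 346 and 59.4 CPM in other nuclei. The arms were apart in high nuclei and overlapped in other nuclei, with a difference of 3.23 (approximate SE 0.27, edgeR adjusted p = 4.1e-14, DESeq2 adjusted p = 0.0621). Over all alternatives its adjusted p ranged from 2.4e-73 to 0.0621, and without each library in turn the difference was 2.16 to 4.12. Tmem163, a zinc transporter gene, had 50.7 and 8.44 CPM in high nuclei of YAP5SA on HFD and on chow and 3.40 and 0.589 CPM in those of control on HFD and on chow, against 21.9, 12.6, 32.9 and 6.11 CPM in other nuclei (difference 3.85, SE 0.39, edgeR adjusted p = 2.8e-11). Of 9 atrial markers tested, 2 were more positive, Myl4 and Myl7, but 0 of 9 without YAP5SA on chow and 0 of 9 without control on HFD. Myl7 stood at 9.81 (HFD) and 11.4 (chow) CPM with YAP5SA and 3.22 (HFD) and 4.13 (chow) CPM with saline in high nuclei, against 17.1 (HFD) and 19.3 (chow) CPM with YAP5SA and 24.6 (HFD) and 6.96 (chow) CPM with saline in other nuclei. The part of atrial nuclei in the Fgf12 and Tmem163 differences was not tested. Ryr3, a ryanodine receptor gene, had a difference of 1.79, against 0.52 without control on HFD (edgeR adjusted p = 0.808, and 5.1e-16 to 0.808 over all alternatives). Bmpr1b, a BMP receptor gene, had 3.57 and missed the threshold without YAP5SA on chow (2.04, edgeR adjusted p = 0.139, and 3.1e-21 to 0.8 over all alternatives). It had 0 UMIs in high nuclei of control on chow, so its fitted value is no bound. The ephrin receptor gene Ephb1 had 1.61 and stood at 17.7 to 48.0 CPM in high and 29.1 to 102 CPM in other nuclei. Of 29 fatty acid genes 4 were more positive, Acsl1, Lpl, Pdk4 and Ucp3, with 1 without YAP5SA on chow and 8 without control on HFD.

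**Figure D5:**
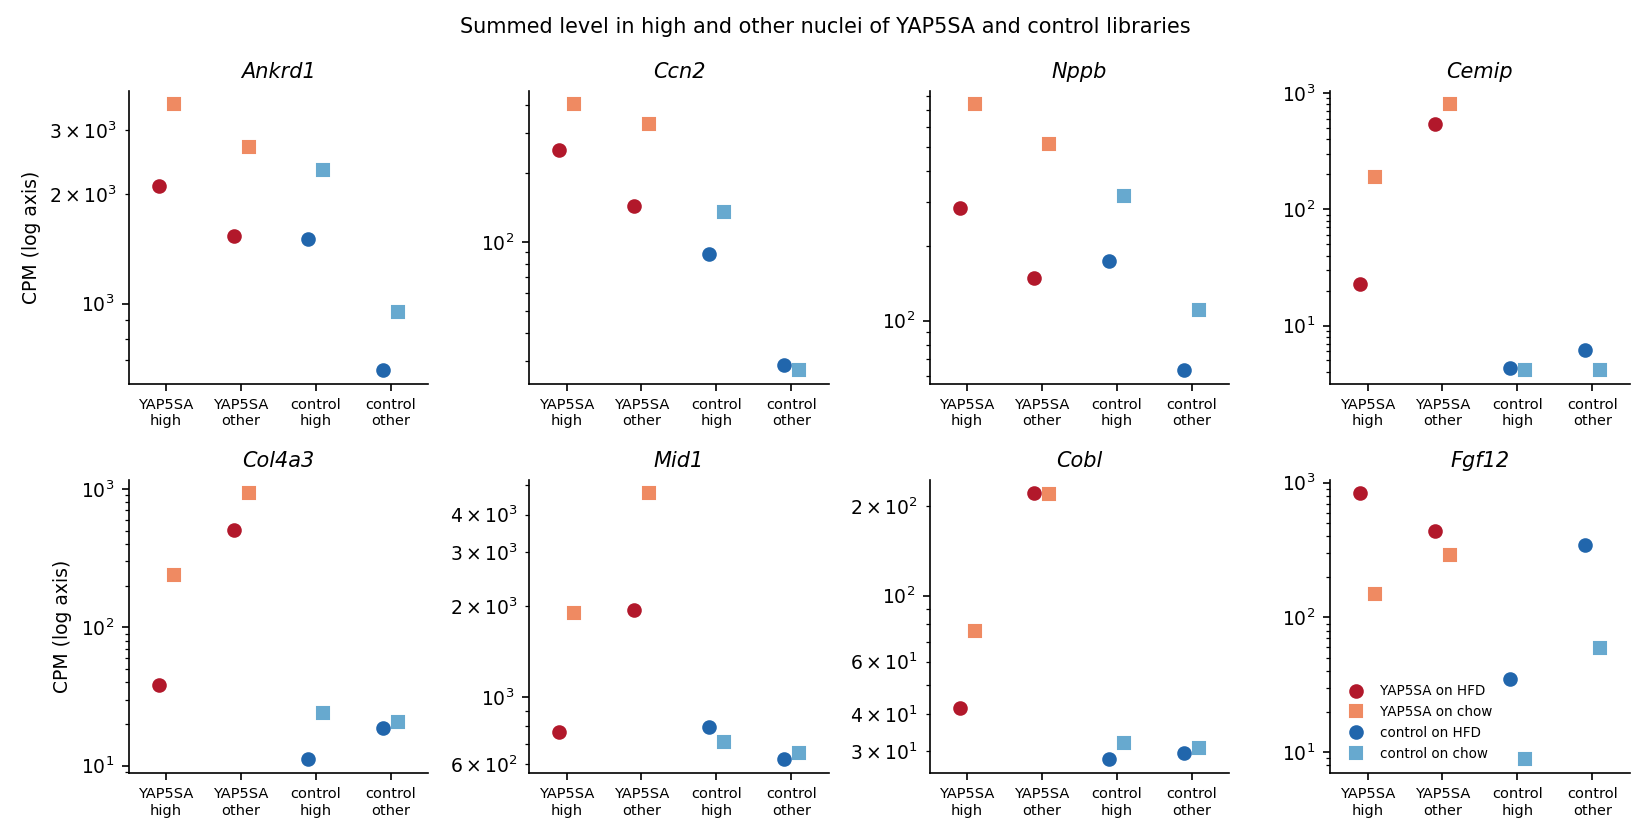
Each panel gives the summed CPM (log axis) of 1 gene in high and other nuclei, with YAP5SA libraries in red tones and control libraries in blue, circles for HFD and squares for chow. Cemip, Col4a3 and Cobl are far above control in other nuclei of YAP5SA and nearer to it in high nuclei, control levels of Ccn2, Ankrd1 and Nppb are higher in high nuclei, and Fgf12 separates the arms in high nuclei.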

How the data were processed

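Single-nucleus libraries of 4 groups, 1 library each, were analysed from the deposited filtered matrices of UMI counts per gene and nucleus. Per the submitters' processing notes, Cell Ranger 7.1.0 and mm10 were used; strand use, annotation and further settings are not stated there. The matrices also count 6 sequences that the authors added to the mouse reference. The members, gene lists and tests were chosen with earlier results of these data known. Nuclei were filtered and chosen as stated at the start. Counts were summed per library and state with Python 3.11.15, scanpy 1.11.5 and scipy 1.17.1, giving 8 sums, and expressed as CPM of all genes. High over other folds used a prior of 0.5 counts, with intervals for counting error only. PCR and free RNA are not covered by such intervals. Genes counted had a mean of at least 10 CPM and were at least 1.5-fold apart in the same direction in every library. The named genes are the 12 higher and 12 lower with the largest smallest fold over the libraries, outside the genes of the rule, mitochondrial genes, Xist, Tsix and Y-linked genes, the 5 with the smallest adjusted p in each direction of the difference test, and list members. YAP5SA was tested with edgeR 4.0.16 (R 4.3.3; TMM, filterByExpr, quasi-likelihood F test, Benjamini-Hochberg over all genes tested, threshold 0.05). The approximate SE is the absolute log2 fold divided by the square root of F. Libraries are the replicates. Nothing says that libraries of an arm come from separate litters, so p-values measure the spread between these libraries, which may be technical. As grouped here, the libraries of an arm differ in diet, and the YAP5SA libraries also in sex pattern. These differences are part of that spread. Doublets were kept, and marked with Scrublet, or as the highest scores at 0.8% per 1000 nuclei in the 2 chow libraries, where its own threshold marked under 0.5%. Gene coordinates are from GENCODE vM21, matched for 32158 of 32291 features, and promoters from RefSeq (GRCm38.p6). Alternatives were the top 5% and 20%, a score without Xirp2, at least 1000 genes, doublets left out, the top 10% within each library, a share of cardiomyocyte genes of at least 2% (added after the data were seen), thinning to 2000 UMIs per nucleus, other floors, priors and scalings, DESeq2 1.42.0, diet as a covariate, and leaving out each library. In simulated counts with known changes the scripts were tested before use. Some members of the lists are not reported here.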

Additional observations from a re-analysis of the deposited data

Results flagged for a closer look

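The share of high nuclei differed in direction between the diets. YAP5SA minus control was −15.7 percentage points on HFD and 0.407 points on chow. With 1 library per group this difference between the diets was not tested, and it rests on control on HFD, where 21.9% of cardiomyocyte nuclei were high.

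The YAP5SA effect differed between high and other nuclei for 134 genes with a more positive and 239 with a more negative effect in high nuclei, by the interaction of state and vector. In the positive direction the named genes were Fgf12 (3.23 log2 units), Tmem163 (3.85), Ephb1 (1.61), Ryr3 (1.79) and Bmpr1b (3.57). In the negative direction they were Gm32027 (−1.89), Mid1 (−1.59), Gm35330 (−2.45), Lmcd1 (−1.81) and Cobl (−1.93). Values by library of Fgf12, Tmem163, Mid1 and Cobl stand in the report. In YAP5SA on HFD, high nuclei held more Fgf12 than other nuclei, while in the other 3 libraries they held less.

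A sequence that the authors added to the reference under the name nsp13 gave UMIs in cardiomyocyte nuclei of the YAP5SA libraries, although no comparison uses it. It stood at 1.09 CPM (2 UMIs) and 6.95 CPM (14 UMIs) in high nuclei of YAP5SA on HFD and on chow and at 0 in high nuclei of both control libraries. Other nuclei held 4.60 and 14.1 CPM in YAP5SA on HFD and on chow, and 1 UMI and 0 UMIs in control on HFD and on chow. The labels used here do not say what nsp13 reports on, and the other 5 added sequences had 0 UMIs.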

How the results depend on the processing

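With the top 5% taken as high, the share of high nuclei was 2.28% (HFD) and 3.85% (chow) with YAP5SA and 12.8% (HFD) and 3.40% (chow) in controls, and in the same groups it was 14.8%, 15.4%, 37.5% and 17.8% with the top 20%. Thinning to 2000 UMIs gave 4.37%, 5.89%, 17.0% and 5.80%. A score without Xirp2 gave 4.34% in YAP5SA on HFD and 9.52% in YAP5SA on chow, and a cardiomyocyte gene share of at least 2% gave 8.74% in YAP5SA on chow and 6.43% in control on chow. Leaving out each library gave 5.53% to 9.13% (HFD) and 6.51% to 10.5% (chow) with YAP5SA and 19.2% to 20.8% (HFD) and 6.21% to 10.6% (chow) in controls, the highest values without control on HFD in the other 3. Control on HFD kept the highest share in all of these.

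The count of genes higher in high nuclei was 34 with the top 20%, 34 after thinning, 145 with no CPM floor and 144 with TMM scaling. Genes lower numbered 223 with at least 2% cardiomyocyte genes, 121 after thinning, 914 with no floor and 94 at a mean of at least 50 CPM. Among the 24 genes named for these folds, 273 gene-by-setting values moved by less than 1 SD over the libraries and 63 by more. With 0 calls in the 4 libraries together, YAP5SA against control in high nuclei gave 72 higher and 23 lower genes with the score without Xirp2, 18 and 9 after thinning, 109 and 60 with DESeq2, 436 and 268 with no filter on low counts, and 1 higher with diet as a covariate. Leaving out each library gave 0 to 155 higher and 0 to 131 lower genes. The difference of the YAP5SA effect gave 63 more positive and 131 more negative genes with the top 5%, 40 and 88 with the top 20%, 76 and 131 without Xirp2, 66 and 151 with at least 2% cardiomyocyte genes, 45 and 84 after thinning, 45 and 86 with DESeq2, and 75 to 247 and 115 to 241 over the libraries left out. With the top 10% taken within each library the difference test gave 191 more positive and 189 more negative genes. Of the values of the 10 genes named for this test, 135 kept their call and 13 lost it, with none of opposite sign. No paired analysis was possible because the labels carry no replicate numbers that pair libraries across groups, and high and other nuclei of 1 library were paired by library in the difference test. Where a value changed, the cause was not tested. Depth limits genes with few UMIs in the high sums, such as Acta1 with 11 UMIs in YAP5SA on HFD.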

Other observations

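No gene of the metabolic lists passed the fold in all 4 libraries in either direction: 0 of 42 nuclear oxidative phosphorylation genes, 0 of 28 fatty acid genes, 0 of 24 TCA cycle genes and 0 of 21 glycolysis genes. Of the oxidative phosphorylation genes 26 of 42 lay above the other nuclei in all 4 libraries and 0 below, beside 1002 and 3023 of all 8781 genes. The medians were 0.23, 0.36, 0.13 and 0.10 in YAP5SA on HFD, YAP5SA on chow, control on HFD and control on chow. After thinning to 2000 UMIs 4 of 42 lay above throughout and 1 below. The counts past the fold were also 0 of 22 autophagy genes, 0 of 13 hypoxia genes and 0 of 26 muscle transcription factor genes. Over all genes 0.968% were higher and 5.51% lower.

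Atrial markers went both ways. Of 5 measured, 0 were at least 1.5-fold higher and 1 lower in all 4 libraries, beside 0.968% and 5.51% of all genes. That 1 was Myl7, with log2 folds of −0.77, −0.73, −2.90 and −0.66 in YAP5SA on HFD, YAP5SA on chow, control on HFD and control on chow. Myl4 was also below throughout, Pam was above throughout (0.48, 0.27, 0.31 and 0.19), and Nppa was below only in control on HFD (−0.43). After thinning 0 of 5 atrial markers were lower in all 4 libraries.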
